A study of Triticum turgidum subsp. durum with 4 samples.

Results

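The miR7757 and miR9674 families made up 37 of the 2111 distinct miRNA sequences recorded in small RNA libraries of durum wheat seedlings, with 21 sequences named miR7757 and 16 named miR9674. Members were all entries named miR7757, MIR7757, miR9674 or MIR9674, whatever the species prefix, the arm or the variant, with 1 entry kept for each distinct sequence. The prefix gives the species of the matched miRBase entry: tae for bread wheat (Triticum aestivum), ata for the wild D-genome donor Aegilops tauschii and bdi for the model grass Brachypodium distachyon. The families were chosen by their high normalised read counts, so the levels below are a description and carry no test.

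The study compared progeny seedlings of 2 durum wheat genotypes whose parents had grown either under water-deficit and heat stress (WH) or under control conditions (CG). SWH and SCG were the libraries of L6, a stress-sensitive breeding line, from WH parents and from CG parents. TWH and TCG were the libraries of the stress-tolerant variety DBA Aurora, again from WH and CG parents. Each library held pooled shoot RNA of 8 seedlings, aged 12 days and all raised without stress in a glasshouse. With 1 library per seed group, every test between a pair compared 2 libraries and not 2 seed groups, and the spread between seedlings was not measured. The libraries held 855716 (SWH), 1293324 (SCG), 1096670 (TWH) and 994074 (TCG) miRNA reads, and 34, 35, 36 and 32 of the 37 members were recorded in them in that order. The labelled tissue could not be checked, since a miRNA table holds no mRNA markers.

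In plants, a miRNA is cut by a Dicer-like enzyme from one arm of a folded precursor transcript, together with a partner from the opposite arm, and the pair forms a short duplex with overhanging 3′ ends. One strand, the guide, is loaded into an Argonaute protein and directs it to complementary transcripts, while the other strand (the star or passenger) is mostly degraded, which is why the arms of one hairpin usually differ widely in level. In Arabidopsis, the first base of the guide influences which Argonaute takes it up, and guides of 22 nt are known for starting the production of secondary small interfering RNAs. Both families were described from wheat and related grasses. A sequence in the names below with "-p5" or "-p3" was assigned to the arm of a known precursor opposite to the annotated miRNA. The label does not always tell the arm, since nearly identical sequences can carry both. An example is tae-MIR9674a-p5_1ss20GT beside tae-MIR9674a-p3_1ss20GT. "1ss2TC" means that the known base T at position 2 is C in the reads, and "L" or "R" with a number gives bases gained or lost at the left or right end.

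The 8 members that reached a normalised count of 1000 in at least 1 library are shown here 5′ to 3′, as DNA letters, because nearly all reads of both families fell on them. Capitals mark bases 2 to 8, the seed. A normalised count is the number of reads multiplied by a scaling factor of the library.
tae-miR7757-5p_1ss2TC: aCAAAACCttcagctatccatc
tae-MIR7757-p3_1ss19AG: tGGATAGTttgaggttttgttt
bdi-MIR7757-p3_1ss6AG: tTTATGAGctcattgaagtaact
tae-miR9674b-5p: aTAGCATCatccatcctaccc
tae-MIR9674a-p5: aTAGCATCatccatcctacca
ata-miR9674b-3p: tGAATTTGtccatagcatcag
ata-miR9674c-5p_L+1R-1_1ss9TG: tTGAATTTgtccatagcatca
ata-miR9674c-3p: gGTGCTATggataaattcaac

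tae-miR9674b-5p and tae-MIR9674a-p5 shared their seed and differed at the last base alone (C21A, counted from 1 at the 5′ end of the first-named sequence). ata-miR9674c-5p_L+1R-1_1ss9TG was ata-miR9674b-3p moved by 1 base, with 20 aligned bases and 0 mismatches, so the seeds of this pair differ although the molecules nearly coincide. The 37 members carried 22 different seeds. The most shared one, TTATGAG, stood in 7 miR7757 sequences with bdi names, and TAGGATG in 4 miR9674 sequences. The lead sequence tae-miR7757-5p_1ss2TC shared its seed with no other sequence in the table. Of the 37 members, 20 were 21 nt long and 8 were 22 nt long, among them both arms of tae-MIR7757. A first base of A was found in 3 of 21 miR7757 and 3 of 16 miR9674 sequences, but these carried 91.6%, 91.5%, 90.8% and 87.8% of the miR7757 reads in SWH, SCG, TWH and TCG, and 81.8%, 80.2%, 83.4% and 81.4% of the miR9674 reads.

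tae-miR7757-5p_1ss2TC, the more abundant of the arms assigned to its hairpin, did not match the durum wheat reference at that position. The hairpin lies on chromosome 3A:702165265-702165608 (assembly Svevo.v1, plus strand), within the span of the gene TRITD_3Av1G264020 (3A:702163911-702166665, annotated as protein-coding, exons not used here), and has a listed folding energy of -101.4 kcal/mol. Its 5p arm occupies positions 11 to 32 and its p3 arm positions 315 to 336 of 344. Both arms differed from this window at a single base, T2C for the 5p and A19G for the p3. The lines below give the reads and the reference at both arms, with the differing base in capitals.
tae-miR7757-5p_1ss2TC, reads: aCaaaaccttcagctatccatc
tae-MIR7757 5p, reference 3A: aTaaaaccttcagctatccatc
tae-MIR7757-p3_1ss19AG, reads: tggatagtttgaggttttGttt
tae-MIR7757 p3, reference 3A: tggatagtttgaggttttAttt

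In a duplex with overhangs of 2 bases at each 3′ end, position 2 of the 5p faces position 19 of the p3. The sequenced arms gave 17 Watson-Crick and 2 G:U pairs over 20 positions, and the reference arms also gave 17 and 2. The sequenced 5p set against the reference p3 gave 16 and 2. The change at one arm was thus matched by a change at the facing base of the other, as a description of these letters. Neither sequenced arm occurred whole in any precursor window of the table. The first 20 bases of the 5p did occur at the end of a window on 3A:701734566-701734713 (minus strand), and the first 19 at the end of a window on 3B:776833029-776833175 (plus strand), with 0 bases of either window left beyond them.

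These windows also hold the bdi-named miR7757 sequences, and the pieces of them below show, in capitals, a mature stretch first (bdi-MIR7757-p3_1ss6AG on 3A and bdi-MIR7757-p3_1ss5AG, which starts 1 base later, on 3B) and the start of tae-miR7757-5p_1ss2TC second.
3A:701734566-701734655, minus strand: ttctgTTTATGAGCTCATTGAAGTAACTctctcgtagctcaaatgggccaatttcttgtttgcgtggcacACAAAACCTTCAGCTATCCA
3B:776833088-776833175, plus strand: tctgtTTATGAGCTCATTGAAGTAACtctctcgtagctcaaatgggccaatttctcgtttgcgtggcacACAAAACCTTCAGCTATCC
The same order stood beside the tae-MIR7757 hairpin, where a window at 3A:702165195-702165269 (plus strand) overlaps the hairpin's first bases. In all 3 places the start of the tttatgag stretch lay 65 bases before the start of the lead sequence. The piece beside the hairpin is shown with the stretches of bdi-MIR7757-p5_1ss6AG_2 and bdi-MIR7757-p3_2ss8GA18AG in capitals.
3A:702165195-702165269, plus strand: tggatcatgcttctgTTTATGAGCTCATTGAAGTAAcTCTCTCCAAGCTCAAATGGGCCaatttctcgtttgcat
Of the 16 windows that carry miR7757 members, 5 lie on 3A and 8 on 3B, and the others on 1B, 7A and 7B with 1 each. On 3A they fall between 701665723 and 702165764, and 6 of the 8 on 3B between 776833029 and 777451426. By the deposited categories, 2 of the 21 miR7757 sequences, the arms of tae-MIR7757, came from a window that folds into a hairpin. The other 19 came from windows whose extended sequence did not form one, with listed folding energies down to -32 kcal/mol, and were named by similarity to the Brachypodium precursor.

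All 16 miR9674 sequences came from hairpins, from 12 windows: 4 on 4B, 4 on 5A, and 1 each on 3A, 3B, 6A and 6B. The 4B windows lay between 658623647 and 660673382, and the 5A windows within 651137969 to 651139032, each overlapping the gene TRITD_5Av1G251150 (5A:651137363-651139018, annotated as protein-coding). No other miR9674 window overlapped an annotated gene. The hairpins of the lead sequence and of its sister are shown with the mature stretches in capitals, read on the minus strand.
tae-miR9674b-5p and ata-miR9674a-3p_L-1R+1, 4B:660673291-660673382: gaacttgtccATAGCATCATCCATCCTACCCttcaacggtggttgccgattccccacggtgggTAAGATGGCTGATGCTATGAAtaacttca
tae-MIR9674a-p5, 5A:651138130-651138217: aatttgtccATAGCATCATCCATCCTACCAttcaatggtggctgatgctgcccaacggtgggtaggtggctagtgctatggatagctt
tae-miR9674b-5p matched its 4B window and a window on 6B (6B:31629004-31629112) over all 21 bases, so its reads cannot be given to one locus. tae-MIR9674a-p5 matched 1 window, on 5A, and ata-miR9674b-3p matched 9 windows on 3A, 3B, 4B and 6A. Of the 16 sequences, 8 matched their assigned window exactly. ata-miR9674c-3p and its partner ata-miR9674c-5p_L+1R-1_1ss9TG both differed at position 9 from their 5A window (T9G in each), whereas they matched 5 and 6 other windows in the table.

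Between members of the miR9674 family, several pairs were complementary with overhangs of 2 bases. ata-miR9674b-3p and ata-miR9674c-3p paired at all 19 positions (17 Watson-Crick and 2 G:U). tae-miR9674b-5p paired with tae-MIR9674a-p3 at 18 of 19 positions (17 Watson-Crick and 1 G:U), and tae-MIR9674a-p5, which differs from it only within the overhang, gave the same counts. The 4 members of the TAGGATG group, to which this star strand belongs, are shown in full because their levels are taken up again below.
tae-MIR9674a-p3: gtaggatggctggtgctatgg
tae-MIR9674a-p3_1ss20GT: gtaggatggctggtgctattg
tae-MIR9674a-p5_1ss20GT: gtaggatggctggtgctatt
ata-MIR9674b-p5: gtaggatggccggtgctatgg

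A stretch of 16 bases of ata-miR9674b-3p was shared with entries that carry another family name, miR5064, and with a sequence that has no miRBase name. In capitals, the stretch reads as follows in the member and in the most abundant of these entries. It is only the part common to all of them, and the pair shown also shares the bases aat just before it. Another of these entries, bdi-miR5064_R+2_1ss1CT, holds the whole of ata-miR9674b-3p followed by cc.
ata-miR9674b-3p: tgaatTTGTCCATAGCATCAG
bdi-miR5064_L-2R+2: aatTTGTCCATAGCATCAGcc
bdi-miR5064_L-2R+2, from a 4B window that overlaps that of ata-miR9674b-3p, had 933, 1173, 861 and 601 normalised counts in SWH, SCG, TWH and TCG. It is not a member by name, and the family sums given here leave it out.

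Together the 37 members took 23.2% of all miRNA reads in SWH, 24.5% in SCG, 24.4% in TWH and 20.9% in TCG. The miR7757 family held 12.0% in SWH (Wilson 95% interval 12.0 to 12.1), 12.7% in SCG (12.6 to 12.7), 13.2% in TWH (13.1 to 13.3) and 10.96% in TCG (10.9 to 11.02). The miR9674 family held 11.2% in SWH (11.1 to 11.2), 11.9% in SCG (11.8 to 11.9), 11.2% in TWH (11.2 to 11.3) and 9.97% in TCG (9.91 to 10.03). These intervals cover counting error only, since the reads carried no molecular identifiers and no seed group was sequenced again. Both families had their lowest share in TCG, the DBA Aurora library from control parents. The highest share was in TWH for miR7757 and in SCG for miR9674.

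**Figure D1:**
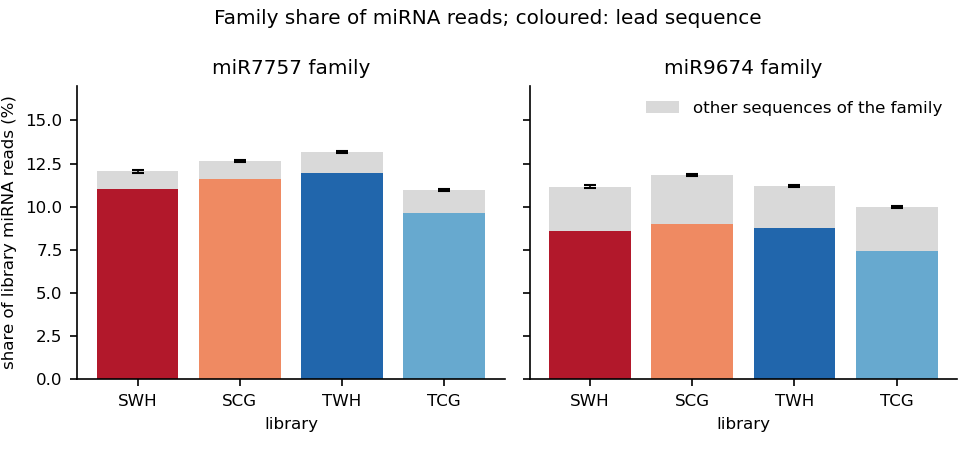
Share of library miRNA reads (%) held by each family in SWH, SCG, TWH and TCG. The coloured part of a bar is the lead sequence (tae-miR7757-5p_1ss2TC or tae-miR9674b-5p), the grey part all other members of the family, and the error bar the Wilson 95% interval of the family share. The lead made up 87.7% to 91.6% of the miR7757 reads and 74.7% to 78.0% of the miR9674 reads.

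tae-miR7757-5p_1ss2TC had 113156 normalised counts in SWH, 124711 in SCG, 124237 in TWH and 98954 in TCG. By mean level it ranked 2 of 2111, behind a sequence of the miR396 family, and it ranked 1 in TWH. SCG and TWH were nearly equal, SWH stood below both, and TCG was the lowest by more than any counting error.

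tae-miR9674b-5p had 88281 normalised counts in SWH, 96955 in SCG, 90855 in TWH and 76633 in TCG, and it ranked 3 in each library. TCG was again the lowest and SCG the highest. The ratio of the lead sequences, miR7757-5p over miR9674b-5p, was 1.28 in SWH, 1.29 in SCG, 1.37 in TWH and 1.29 in TCG, so that the pair held nearly one proportion in 3 of the 4 libraries and miR7757-5p stood somewhat higher in TWH.

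The other members of this level did not follow one order. tae-MIR7757-p3_1ss19AG, assigned to the arm opposite the lead miR7757, had 2847 in SWH, 3162 in SCG, 4363 in TWH and 6524 in TCG. It was highest where the lead was lowest. bdi-MIR7757-p3_1ss6AG, of the TTATGAG group, had 4114 in SWH, 4698 in SCG, 4352 in TWH and 3280 in TCG, an order close to that of the lead.

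Among the miR9674 sequences, ata-miR9674b-3p had 16354 in SWH, 20673 in SCG, 14852 in TWH and 13982 in TCG, with both L6 libraries above both DBA Aurora libraries. tae-MIR9674a-p5 had 5482 in SWH, 5476 in SCG, 6315 in TWH and 6897 in TCG, with both L6 libraries below. ata-miR9674c-3p was the flattest of the 8, with 1899 in SWH, 1812 in SCG, 1999 in TWH and 2121 in TCG. ata-miR9674c-5p_L+1R-1_1ss9TG had 881 in SWH, 1150 in SCG, 871 in TWH and 935 in TCG, high in SCG alone.

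**Figure D2:**
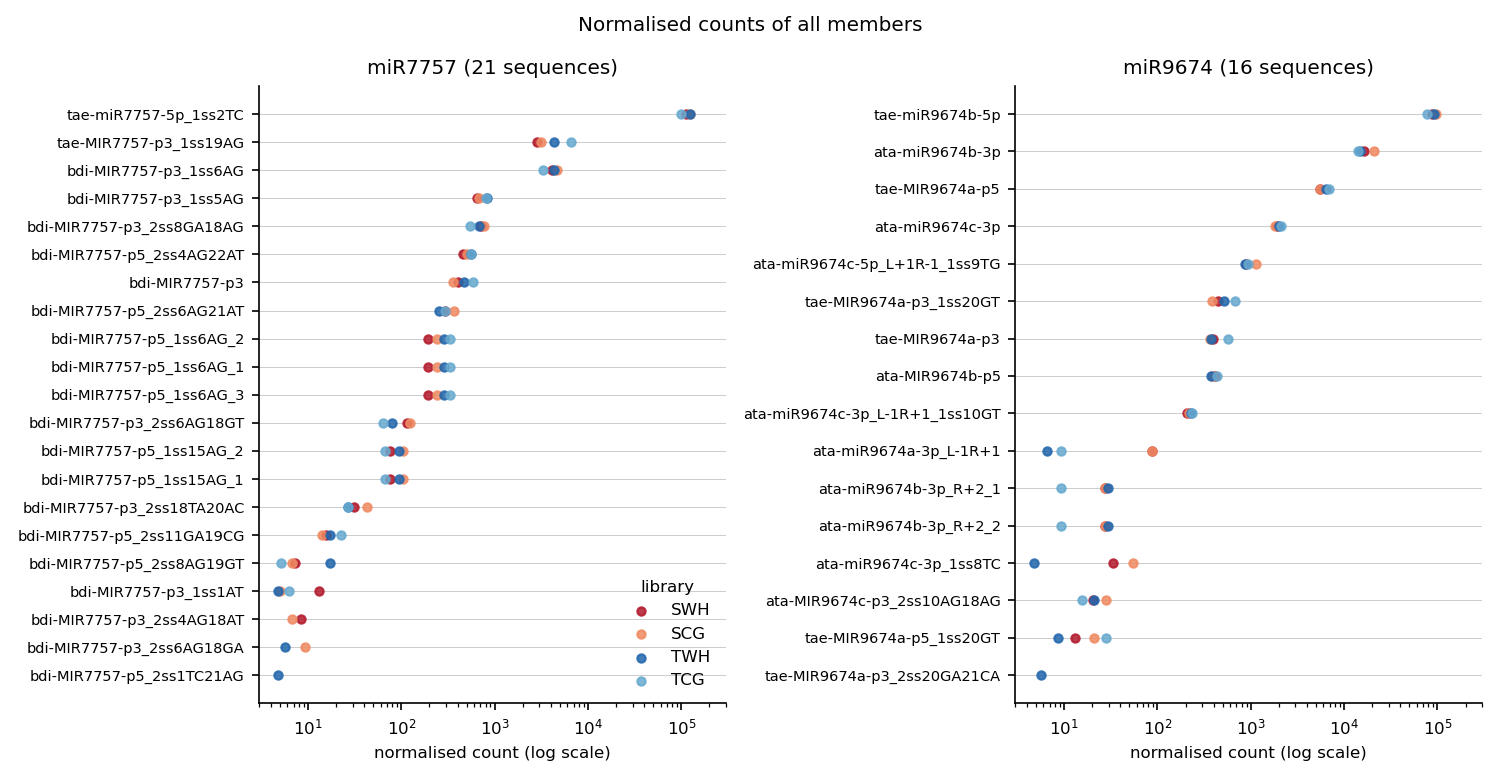
Normalised count (log scale) of each of the 37 members in the 4 libraries, 1 point per library, with members ordered by mean level within each family. A library without a point did not record the sequence. Most members lie within a narrow band across libraries. ata-miR9674a-3p_L-1R+1 and ata-miR9674c-3p_1ss8TC show both L6 libraries far to the right of the DBA Aurora libraries.

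Below these 8 members, 15 had their highest normalised count between 100 and 1000 (the highest 817) and 14 stayed under 100, with 4 of them under 10. Few values lie under 5 reads, taken here as the recording minimum, which is 5.99 normalised counts in SWH, 4.16 in SCG, 4.73 in TWH and 5.18 in TCG. Of the 37 members, 32 were recorded in all 4 libraries. bdi-MIR7757-p3_2ss4AG18AT was listed in L6 only, with 7 reads in SWH and 8 in SCG, and bdi-MIR7757-p5_2ss1TC21AG and tae-MIR9674a-p3_2ss20GA21CA were listed in TWH only, with 5 and 6 reads. bdi-MIR7757-p3_2ss4AG18AT passed both tests in SCG against TCG and in SWH against TWH, and bdi-MIR7757-p3_2ss6AG18GA, with 11 reads in SCG, 6 in TWH and 0 elsewhere, passed in SWH against SCG and in SCG against TCG. These calls, counted below, rest on 7 to 11 reads against 0, within 1.77-fold of the recording minimum.

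Some entries repeat each other's values. bdi-MIR7757-p5_1ss6AG_1, _2 and _3, which are 20, 21 and 22 nt long and begin alike, have the same reads in every library, as do both bdi-MIR7757-p5_1ss15AG entries and both ata-miR9674b-3p_R+2 entries. Counting each such set once, the 37 members give 33 separate sets of values.

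The first question of the design was how seedlings of stressed parents differed from those of unstressed parents within each genotype. In DBA Aurora (TWH against TCG), 7 members were higher and 6 lower when 2 tests were required to pass. These were a chi-squared test on a table of 2 by 2 and the exact test of Fisher (two-sided), each on the sequence against the rest of its library, with a Benjamini-Hochberg adjusted p under 0.05 over all sequences. Of the 36 members recorded in this pair 36.1% passed, beside 21.1% of all 1977 sequences recorded (8.85% higher and 12.3% lower). Both leads were among the 7. The tests weigh counting error alone, so that abundant sequences pass at small differences: of the 98 other sequences recorded with a mean of 1000 or more, 68.4% passed. The members' median log2 fold change was -0.09 over the 31 with a mean of 10 or more, against -0.03 over all 1251 such sequences. By family it was -0.01 for miR7757 and -0.10 for miR9674.

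tae-miR7757-5p_1ss2TC was 1.26-fold higher in TWH than in TCG (log2 fold change 0.33, 95% counting interval 0.32 to 0.34). tae-miR9674b-5p was 1.19-fold higher (0.25, interval 0.23 to 0.26). bdi-MIR7757-p3_1ss6AG rose by 0.41 (interval 0.34 to 0.47). The strands complementary to the leads named next were lower in TWH. tae-MIR7757-p3_1ss19AG fell by 0.58 on the log2 scale (interval -0.64 to -0.53), tae-MIR9674a-p3 fell by 0.59 (-0.78 to -0.41) and tae-MIR9674a-p3_1ss20GT fell by 0.40 (-0.57 to -0.24).

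Members with an absolute log2 fold change above 1 in DBA Aurora were few and of low count, 2 higher and 1 lower, or 8.33% of those recorded beside 7.74% of all sequences (3.14% higher and 4.6% lower). The ata-miR9674b-3p_R+2 entries, whose values are identical, had 27.6 normalised counts in SWH, 27.5 in SCG, 29.3 in TWH and 9.32 in TCG. TCG alone was low, and TWH over TCG gave a log2 fold change of 1.66 (interval 0.58 to 2.73). tae-MIR9674a-p5_1ss20GT had 13.2 in SWH, 20.8 in SCG, 8.52 in TWH and 27.9 in TCG, a log2 fold change of -1.71 in TWH over TCG (interval -2.80 to -0.63).

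In L6 (SWH against SCG), 2 members were higher and 6 lower by both tests, 22.9% of the 35 recorded beside 13.7% of all 1967 sequences (6.96% higher and 6.76% lower). None had an absolute log2 fold change above 1, which 4.73% of all sequences had (2.9% higher and 1.83% lower). Both leads were lower in SWH, tae-miR7757-5p_1ss2TC with a log2 fold change of -0.14 (interval -0.15 to -0.13) and tae-miR9674b-5p also with -0.14 (-0.15 to -0.12). With reads per library total these values were -0.070 and -0.065. Among the 8 abundant members, the largest falls that passed were those of ata-miR9674c-5p_L+1R-1_1ss9TG (-0.38, interval -0.51 to -0.25) and ata-miR9674b-3p (-0.34, interval -0.37 to -0.31). The 2 members called higher were ata-miR9674c-3p and tae-MIR9674a-p3_1ss20GT, with 0.07 (interval -0.03 to 0.16) and 0.22 (interval 0.02 to 0.42). For ata-miR9674c-3p the interval of the fold change held 0, since the tests compare shares of the library total and these totals differed.

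The leads thus moved in opposite directions with parent treatment in the 2 genotypes, higher in TWH than in TCG and lower in SWH than in SCG. The difference of the log2 fold changes, L6 minus DBA Aurora, was -0.47 for tae-miR7757-5p_1ss2TC (counting interval -0.49 to -0.45) and -0.38 for tae-miR9674b-5p (-0.40 to -0.36). Of the 32 members recorded in all 4 libraries, 10 (31.2%) had an interval of this difference below 0 and 7 (21.9%) above 0, beside 13.4% and 13.5% of all 1333 such sequences and 41.8% and 38.8% of the 98 other abundant ones. The design leaves no residual degree of freedom for an interaction, and these differences were not tested against the spread between seed groups.

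Across both genotypes, an additive edgeR quasi-likelihood fit of genotype and parent treatment called 0 of the 31 members tested for parent treatment. It also called 0% of all 1258 sequences, and 0 members had an unadjusted p under 0.05. tae-miR7757-5p_1ss2TC had an estimate of 0.15 ± 0.16 (log2, SE, WH minus CG, adjusted p = 0.997), and tae-miR9674b-5p one of 0.11 ± 0.14 (adjusted p = 0.997). The fit rests on 1 residual degree of freedom and counts the opposite directions of both genotypes as noise. The changes of the leads in single pairs were far beyond counting error. The noise of the fit holds the leads' own opposite directions and is partly shared over all sequences tested. Changes in single pairs were not tested against it.

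The second question was how the genotypes differed within one seed source. Between control-parent progeny (SCG against TCG), 15 members were higher and 12 lower in SCG by both tests, 77.1% of the 35 recorded beside 35.3% of all 2039 sequences (15.8% higher and 19.5% lower). Of the other sequences with a mean of 1000 or more, 91.9% passed. With an absolute log2 fold change above 1, 4 were higher and 1 lower, 14.3% beside 17.4% of all sequences (7.41% higher and 10% lower). The members' median over the 31 with a mean of 10 or more was 0.30, against 0.01 over all 1257 such sequences. By family it was 0.08 for miR7757 and 0.30 for miR9674, with entries of identical values counted separately.

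Both leads were higher in SCG than in TCG, tae-miR7757-5p_1ss2TC by 0.33 on the log2 scale (interval 0.32 to 0.35) and tae-miR9674b-5p by 0.34 (0.33 to 0.35). ata-miR9674b-3p was higher by 0.56 (0.53 to 0.59), and bdi-MIR7757-p3_1ss6AG by 0.52 (0.46 to 0.58). The p3 strand of tae-MIR7757 and the complements of tae-miR9674b-5p in the TAGGATG group named next were lower, whereas ata-miR9674a-3p_L-1R+1, on the opposite arm of the tae-miR9674b hairpin, was higher in SCG and is described below. tae-MIR7757-p3_1ss19AG fell by 1.04 (interval -1.10 to -0.99), the only miR7757 member past the fold criterion here, which it missed with TMM factors (-0.997). Likewise tae-MIR9674a-p3_1ss20GT fell by 0.81 (-0.99 to -0.64) and tae-MIR9674a-p3 by 0.62 (-0.81 to -0.44).

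Between progeny of stressed parents (SWH against TWH), 5 members were higher and 9 lower, 37.8% of the 37 recorded beside 35% of all 1985 sequences (16.8% higher and 18.2% lower). Past the fold criterion, 2 were higher and 0 lower, 5.41% beside 11.4% of all sequences (6.3% higher and 5.09% lower). The leads differed little here: the log2 fold change was -0.13 for tae-miR7757-5p_1ss2TC (interval -0.15 to -0.12) and -0.04 for tae-miR9674b-5p (-0.06 to -0.03). tae-MIR7757-p3_1ss19AG was again lower in L6, with -0.62 (-0.69 to -0.54). SCG against TCG and SWH against TWH share no library, but each shares one with a comparison of parent treatment.

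A low-level member had the lowest edgeR adjusted p for genotype among the members, though not under 0.05. ata-miR9674a-3p_L-1R+1, on the 3p arm of the tae-miR9674b hairpin, had 86.3 normalised counts in SWH, 87.4 in SCG, 6.63 in TWH and 9.32 in TCG. The L6 libraries were nearly equal, although the libraries of a genotype differ in parent treatment and are not replicates. SCG over TCG gave a log2 fold change of 3.23 (interval 2.25 to 4.21) and SWH over TWH one of 3.70 (2.58 to 4.82). In the additive fit its genotype effect was 3.44 ± 0.31 (log2, SE, L6 minus DBA Aurora), a 10.9-fold difference, with an edgeR adjusted p of 0.0924.

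ata-miR9674a-3p_L-1R+1 also differed from the reference hairpin shown above, at A20G, and no window in the table held it whole. The lines below set it beside a second member with a genotype pattern, ata-miR9674c-3p_1ss8TC, and that member's abundant form, with the differing base in capitals.
ata-miR9674a-3p_L-1R+1: taagatggctgatgctatgGa
ata-miR9674c-3p_1ss8TC: ggtgctaCggataaattcaac
ata-miR9674c-3p: ggtgctaTggataaattcaac
ata-miR9674c-3p_1ss8TC (T8C against ata-miR9674c-3p) matched 2 windows on 4B exactly. It had 33.6 normalised counts in SWH, 54.1 in SCG, 4.73 in TWH and 0 in TCG, with 28, 65, 5 and 0 reads. SWH over TWH gave a log2 fold change of 2.83 (interval 1.45 to 4.20). SCG was at least 10.5-fold higher than TCG when TCG was set at the recording minimum of 5 reads.

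The additive edgeR fit called 0 of the 31 members for genotype beside 0.0795% of all 1258 sequences, which is 1 sequence and no member. At an unadjusted p under 0.05 there were 4 members, 12.9% of those tested beside 13.8% of all sequences: the pair just described, tae-MIR7757-p3_1ss19AG (-0.82 ± 0.17, adjusted p = 0.217) and bdi-MIR7757-p3_2ss6AG18GT (0.75 ± 0.25, adjusted p = 0.335). The adjusted p of ata-miR9674c-3p_1ss8TC was 0.218. With DESeq2 on the same reads, 3 members were called, namely ata-miR9674a-3p_L-1R+1 (adjusted p = 0.00218), tae-MIR7757-p3_1ss19AG (0.00753) and ata-miR9674c-3p_1ss8TC (0.0354). The members' median genotype effect was 0.11, against 0.00 over all sequences tested, with 17 estimates above 0 and 14 below. By family it was -0.05 for miR7757 and 0.16 for miR9674.

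**Figure D3:**
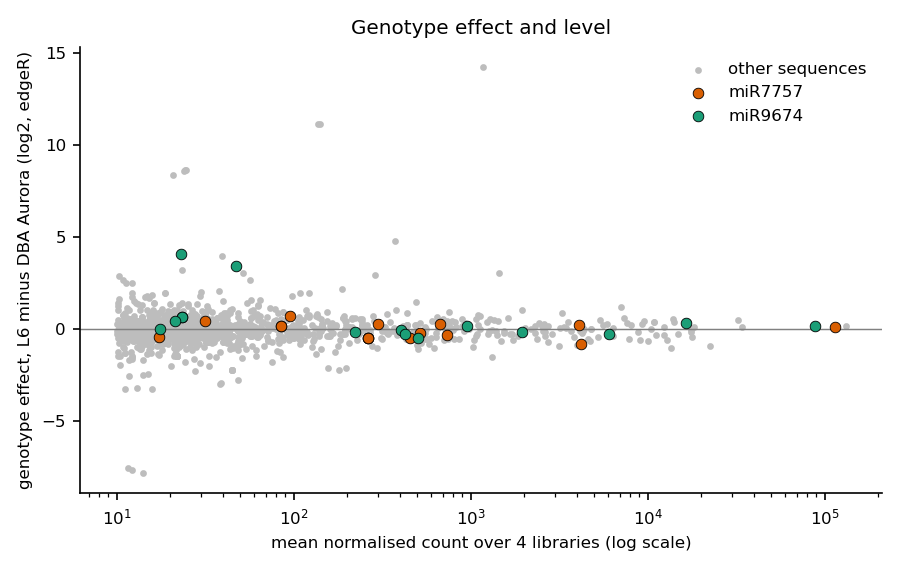
Genotype effect (log2, L6 minus DBA Aurora, additive edgeR fit) against the mean normalised count over the 4 libraries (log scale), for all 1258 sequences tested, with miR7757 and miR9674 members marked. Both leads sit at the right edge near 0. The miR9674 members at 3.44 and 4.10 stand above the rest of the members and have mean counts of 47.4 and 23.1.

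**Figure D4:**
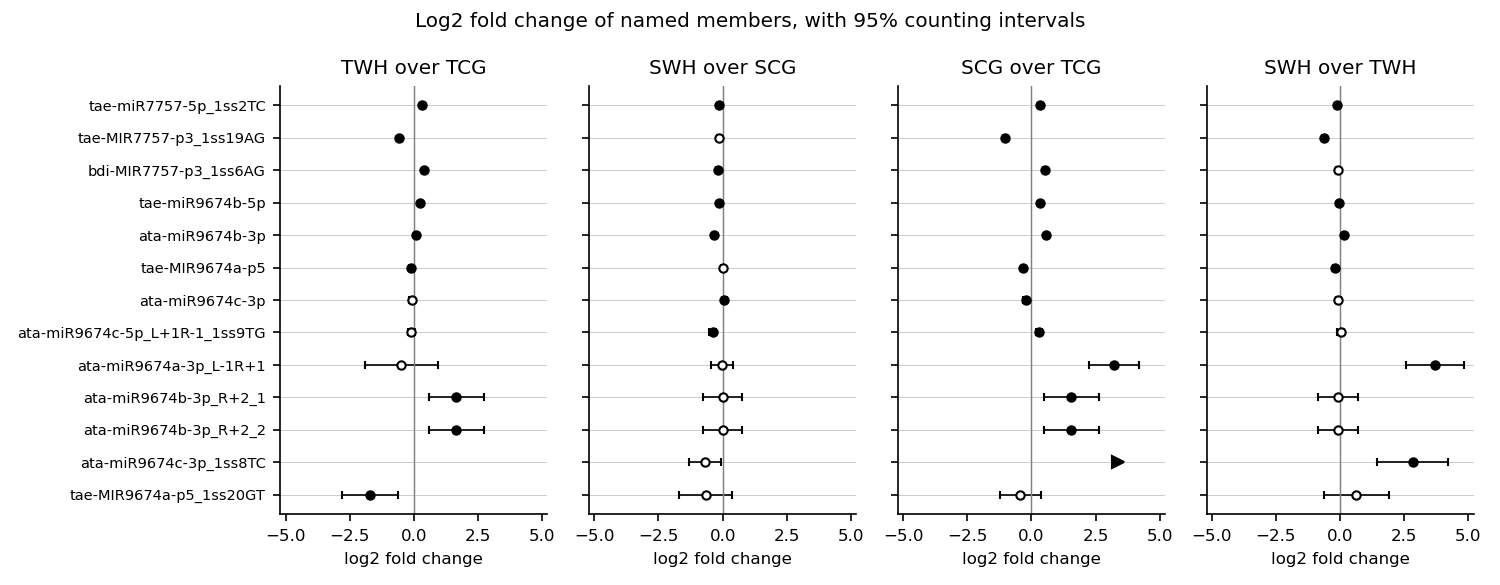
Log2 fold change of the 13 named members in each pair of libraries, first-named library over second. Bars are 95% counting intervals, filled points passed both tests at an adjusted p under 0.05, open points did not, and the arrowhead marks a lower bound against 0 reads in TCG. In the pair of TWH and TCG, ata-miR9674c-3p_1ss8TC is left out because it had 5 and 0 reads. ata-miR9674a-3p_L-1R+1 stands at 3.70 for SWH over TWH and 3.23 for SCG over TCG.

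Ratios of sequences within a library do not depend on how libraries were scaled, and they separated the libraries more than the leads' levels did. The 5p over p3 ratio of tae-MIR7757 was 39.7 in SWH (counting interval 38.2 to 41.4), 39.4 in SCG (38.2 to 40.7), 28.5 in TWH (27.6 to 29.3) and 15.2 in TCG (14.8 to 15.6). Neither sequence occurred whole in any precursor window, so their reads cannot be placed at one hairpin. The ratio compares the sequences so named, and it may not be an arm ratio of a single hairpin. Both L6 libraries gave the same ratio within counting error, with a log2 difference of 0.01 (interval -0.06 to 0.09) for SWH against SCG. In DBA Aurora the ratio was 1.88-fold higher in TWH than in TCG, and between control-parent progeny it was 2.60-fold higher in SCG than in TCG. No replicate library shows how far such a ratio varies between seedling pools.

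The ratio of tae-miR9674b-5p to its complement tae-MIR9674a-p3 was 224 in SWH, 264 in SCG, 242 in TWH and 135 in TCG. TCG stood lowest here as well, and TWH against TCG gave a 1.79-fold difference (log2 0.84, interval 0.65 to 1.02). The ratio to its sister from 5A, tae-MIR9674a-p5, was 16.1 in SWH, 17.7 in SCG, 14.4 in TWH and 11.1 in TCG. TCG had the lowest value of both ratios, which share the reads of tae-miR9674b-5p.

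The ratios of other pairs did not all follow the same order. For ata-miR9674c, the 3p over 5p ratio was 2.16 in SWH, 1.58 in SCG, 2.30 in TWH and 2.27 in TCG, with SCG alone set apart. The 5p counted here leaves out ata-miR9674b-3p, which nearly coincides with it and was far more abundant. The ratio of ata-miR9674b-3p to ata-miR9674c-3p was 8.61 in SWH, 11.4 in SCG, 7.43 in TWH and 6.59 in TCG. The ratio of tae-miR9674b-5p to ata-miR9674a-3p_L-1R+1 was 1023 in SWH, 1109 in SCG, 13713 in TWH and 8226 in TCG, where only 7 and 9 reads of the minor strand stood behind the DBA Aurora values. ata-miR9674b-3p over ata-MIR9674b-p5 was 39.7 in SWH, 54.5 in SCG, 39.3 in TWH and 31.9 in TCG. Here SCG was highest and TCG lowest, the order also seen for tae-miR9674b-5p over tae-MIR9674a-p5.

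**Figure D5:**
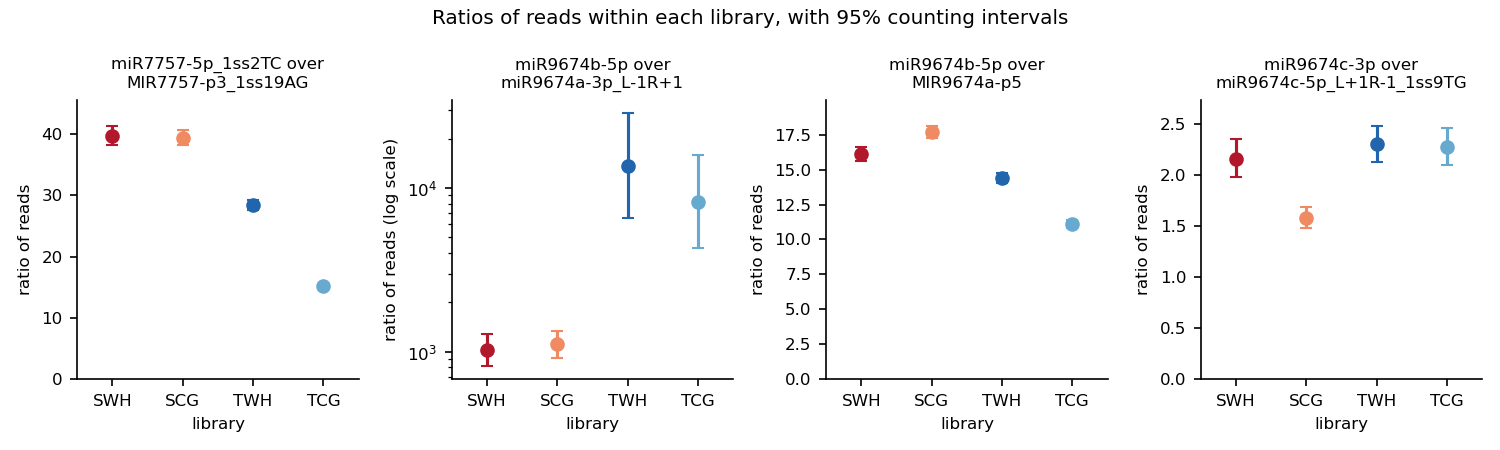
Ratios of reads within each library for 4 pairs of members, with 95% counting intervals, for SWH, SCG, TWH and TCG. The second panel has a log axis, the others start at 0. The ratio of the tae-MIR7757 arms falls into 39.7 and 39.4 for L6 against 28.5 and 15.2 for DBA Aurora.

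Sequences of other families with a pattern like that of the leads were sought among the 299 that averaged 100 normalised counts or more and had reads in all 4 libraries. The measure was the largest deviation, over the 4 libraries, between log2 counts centred on each sequence's own mean. Nearest to tae-miR7757-5p_1ss2TC were tae-MIR1128-p5_1ss9AG (0.05), tae-miR9658-3p (0.08), ata-miR9863a-3p_2ss9TC22CG (0.08), tae-miR9675-3p_L-1R+1 (0.08) and ata-miR166a-5p (0.10). Nearest to tae-miR9674b-5p were ata-MIR9863a-p3 (0.05), ata-miR9863a-3p_1ss9TC (0.05), ata-miR9863a-3p_2ss9TC22CG (0.07), tae-MIR1128-p5_1ss9AG (0.09) and tae-miR9675-3p_L-1R+1 (0.09). The leads were at 0.07 from each other. Most members of their own families were farther off, up to 0.92 for tae-MIR7757-p3_1ss19AG from tae-miR7757-5p_1ss2TC among those with such levels. However, bdi-MIR7757-p3_1ss6AG (0.099) and bdi-MIR7757-p3_2ss8GA18AG (0.105) lay about as near to tae-miR7757-5p_1ss2TC as ata-miR166a-5p did (0.104). With 4 libraries and normalised counts whose totals are nearly fixed, such likeness is a description.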

How the data were processed

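Small RNA (18 to 25 nt) was sequenced from 4 pooled libraries, and the authors assigned reads with ACGT101-miR to miRBase and the durum wheat assembly Svevo.v1. The deposited raw values are estimated counts of reads per sequence and arm and are not all whole. The normalised counts, a scaled signal, are these reads times 1 factor per library, as deposited by the authors. The authors' columns of fold changes and p-values were not used. Here, 2174 entries were reduced to 2111 distinct sequences, and 28 lines were not analysed here. Chromosome names were matched by order to RefSeq's annotation of Svevo.v1. Pair tests used normalised counts against the rest of the library, and counts of 0 were set to 5 reads for fold changes. Reads rounded to whole numbers were fitted in edgeR 4.0.16 (TMM, mean normalised count of at least 10). Alternatives used DESeq2 1.42.0 and limma 3.58.1 (R 4.3.3, Python 3.11.15, scipy 1.17.1). The procedures were tested on simulated data. Named members were those with 1000 normalised counts in 1 library, past both tests with an absolute log2 fold change above 1, or called by edgeR, others being named where they share a stretch with these or occur in 1 genotype or seed source only. Likeness was read from the 5 nearest sequences of other families. Members, lists and rules were chosen with earlier results of these data known.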

Additional observations from a re-analysis of the deposited data

Results flagged for a closer look

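With 1 library per seed group, no sample could be compared with others of its group. Members that passed both pair tests in opposite directions in the 2 genotypes were singled out, with the difference given as log2(SWH/SCG) minus log2(TWH/TCG). The difference itself was not tested. It was -0.60 for bdi-MIR7757-p3_1ss6AG (-0.19 in L6 and 0.41 in DBA Aurora), -0.47 for tae-miR7757-5p_1ss2TC (-0.14 and 0.33), -0.43 for ata-miR9674b-3p (-0.34 and 0.09) and -0.38 for tae-miR9674b-5p (-0.14 and 0.25). tae-MIR9674a-p3_1ss20GT moved the other way in both genotypes, with a difference of 0.62 (0.22 and -0.40). Depth moves with these comparisons, since SWH had the fewest miRNA reads (855716) and SCG the most (1293324), and its part in the differences was not tested.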

How the results depend on the processing

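No paired analysis was possible because each seed group had 1 library. With unadjusted p, 20 members (55.6%, beside 34.3% of all sequences) passed both tests in TWH against TCG in place of 13. Adding an absolute log2 fold change above 1 left 3 in TWH against TCG, 0 in SWH against SCG, 5 in SCG against TCG and 2 in SWH against TWH. With identical values taken as 1 and no fold criterion, the counts of 33 in that order were 12, 9, 23 and 12. The 23 in SCG against TCG were 13 higher and 10 lower. For genotype, 0 members were called by edgeR, against 3 of 31 with DESeq2 (35 against 1 of all sequences), 1 with the authors' factors (10 of all), 3 of 37 without a filter (138 of all) and 1 of 27 with identical values taken as 1 (29 of all). With 1 library left out at a time and genotype as the only term, so that the lone library is assumed to vary like the pair of the other genotype, 1 to 3 were called, with 3 in the fit without TWH (102 of all), 2 without TCG (33), 1 without SWH (22) and 1 without SCG (39). The adjusted p of ata-miR9674a-3p_L-1R+1 ran from 2.21e-12 without a filter to 0.0771 with DESeq2 size factors, and its estimate from 2.43 with limma at a pseudocount of 10 to 3.70 without TCG. No alternative called a member for parent treatment. In the order TWH over TCG, SWH over SCG and SCG over TCG, the log2 fold change of the miR7757 sum was 0.35, -0.12 and 0.32 with TMM factors and 0.27, -0.073 and 0.21 with reads per library total, where SWH over TWH was -0.13. In the same order the miR9674 sum gave 0.25, -0.14 and 0.36 with TMM factors and 0.17, -0.086 and 0.25 with reads per library total, where SWH over TWH was -0.0069. As alternatives chosen after seeing the data, the genotype difference of the parent treatment effect became -0.52 with TMM factors and -0.39 with library totals for tae-miR7757-5p_1ss2TC, -0.43 and -0.30 for tae-miR9674b-5p, and -0.47 and -0.34 for ata-miR9674b-3p. Across 104 recalculated fold changes of named members, none gained or lost its adjusted p under 0.05. This was nearly fixed in advance, because the tests compare shares of the library total and rescaling a library leaves these unchanged. The direction changed in 2 of the 104, both of ata-miR9674a-3p_L-1R+1 in SWH over SCG, which did not pass. Its value there was -0.02, against 0.0025 with TMM factors and 0.05 with library totals. The fold criterion was crossed in 1, tae-MIR7757-p3_1ss19AG in SCG over TCG (-0.997 with TMM factors). The cause of the moves was not tested. Intervals cover counting error alone, and calls on about 10 reads against 0 carry little weight.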
